A study of Mus musculus with 15 samples.

Results

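The genes described here are 40 genes of the cell cycle and DNA replication, chosen by name from the 21851 genes of the deposited table. They fall into 3 classes by textbook role: 2 G1 genes (Ccnd1 and Cdk4), 18 genes of S phase and replication, and 20 genes of G2 and mitosis. All 40 were listed above the low-value limit (at least 1 FPKM in at least 5 libraries) and were tested, among 11311 genes in all. FPKM counts sequenced fragments relative to transcript length and library size, so levels can be set against each other between genes.

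Bulk mRNA was sequenced from tumour blocks of MC38, a mouse colon adenocarcinoma line grown in mice, with 15 libraries in 3 groups of 5. The mice received vehicle, an antibody against the immune checkpoint receptor PD-1, or BG136 (a soluble β-glucan, a polysaccharide) plus anti-PD-1, called the combination below. All 3 groups carry the label wild type and were given their agents into a vein, and the labels used here state no dose, time, age or strain. The labels call the replicates tumours and do not say that each came from its own animal, so the p-values measure the spread between these samples. The labelled cell type was checked with 6 epithelial markers, which were low: their medians over the 15 libraries lay between 0.317 FPKM (Cldn4) and 1.48 FPKM (Cdh1), with Epcam at 0.588 and Krt8 at 0.606. The FPKM of a library summed to 377509 to 424899, and without read counts the absolute depth is unknown.

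Cyclin D with Cdk4 or Cdk6 phosphorylates the retinoblastoma protein in G1, which frees E2F factors to switch on genes of the G1/S transition and of DNA replication. Origins are then licensed by Cdc6 and Cdt1, which load the Mcm helicase. Genes of G2 and mitosis are switched on later by the MuvB complex with B-Myb and FoxM1, and cyclin B with Cdk1 drives entry into mitosis. In a tumour block these transcripts come from dividing tumour cells and from any dividing immune or stromal cells, and in bulk RNA fewer dividing cells and less RNA per cell cannot be told apart.

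Levels spanned a wide range in vehicle tumours, from a mean of 258 FPKM for Cdk4 and 173 FPKM for Pcna to 4.40 FPKM for Tyms and 4.05 FPKM for E2f2. Ube2c (134 FPKM), Top2a (96.8 FPKM) and Cdc20 (56.6 FPKM) led the G2 and mitosis class, and Cenpe (9.77 FPKM) and Cenpf (8.42 FPKM) closed it. The proliferation marker Mki67 had a mean of 25.6 FPKM.

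**Figure D1:**
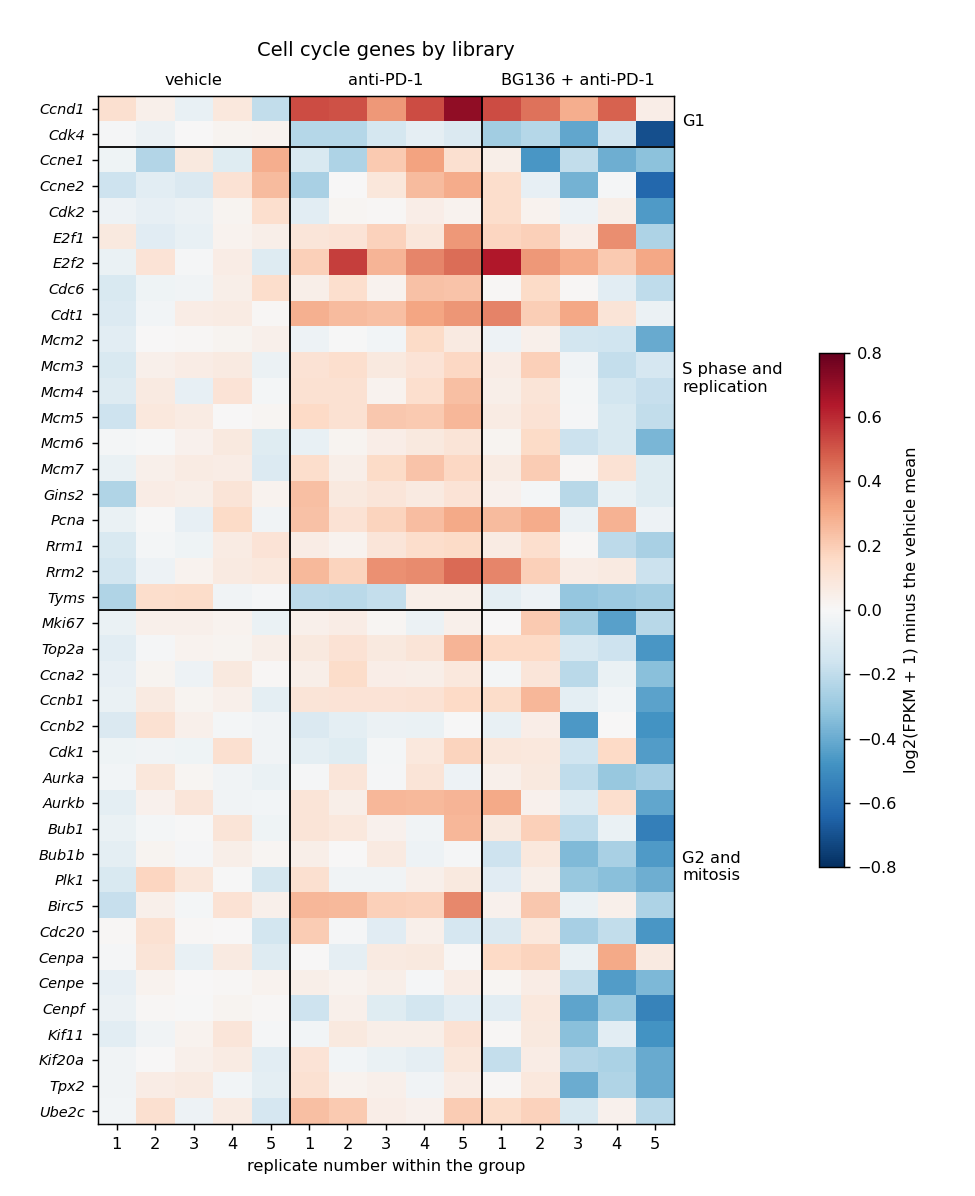
Each row is a gene and each column a tumour library, and colour gives log2(FPKM + 1) minus the vehicle mean of that gene, red above and blue below; lines separate the 3 groups and the 3 classes. Combination replicate 5 is blue in 19 of 20 G2 and mitosis genes, and combination replicate 2 is above the vehicle mean in all 20.

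Among the members, cyclin D1 and some replication genes rose against vehicle under anti-PD-1 alone. The median G2 and mitosis member lay close to the vehicle level. The wider lists described below did not all divide in this way. The fit called 10 of the 40 members higher, where 10.1% of all 11311 tested genes were higher, and it called 1 member lower, where 8.50% of all genes were lower; 18.6% of all genes passed in either direction (limma on log2(FPKM + 1), Benjamini-Hochberg adjusted p under 0.05). Of the S phase and replication genes 6 of 18 rose, 17 of 18 had a positive difference, and their median log2 difference was 0.12. Of the G2 and mitosis genes 3 of 20 rose, 18 of 20 had a positive difference, and their median was 0.04. The median over all tested genes was 0.01, and 51.6% of them had a positive difference. Without overlap between the 5 anti-PD-1 and the 5 vehicle tumours, 10 members (25%) lay above vehicle, against 7.09% of all tested genes. The calls depended on the fit: over all 15 libraries at once, with a spread that takes in the combination tumours, 4 members passed (Ccnd1, E2f2, Cdt1 and Rrm2), and without anti-PD-1 replicate 5, 7 passed. Over all tested genes 628 and 1477 passed in these fits, against 2100 in the main fit. With quantile normalization 30 instead of 36 of the 40 differences were positive, beside 4965 instead of 5832 of all 11311 tested genes. Higher calls then made up 40.9% instead of 54.2% of the calls over all genes.

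Ccnd1, cyclin D1, was listed at 152, 143, 133, 147 and 121 FPKM in the vehicle tumours and at 200, 198, 177, 200 and 228 FPKM in the anti-PD-1 tumours. Every anti-PD-1 tumour lay above every vehicle tumour. The log2 difference was 0.52 ± 0.07 (SE), with an adjusted p of 0.00177 in limma and an exact two-sided permutation p of 0.00794, the smallest that 5 against 5 allows. In the combination tumours it was listed at 200, 188, 170, 193 and 144 FPKM. There only replicate 5 fell among the vehicle values, and the log2 difference from vehicle was 0.35 ± 0.10 (adjusted p 0.0201, limma). Without vehicle replicate 5, the lowest vehicle tumour, that adjusted p was 0.0518. Between the combination and anti-PD-1 the difference was -0.17 ± 0.10 (adjusted p 0.322, limma).

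Cdk4, the kinase that cyclin D binds, went the other way. Vehicle tumours were listed at 256, 250, 258, 262 and 263 FPKM, anti-PD-1 tumours at 220, 220, 234, 245 and 238 FPKM, and combination tumours at 212, 220, 193, 232 and 158 FPKM. No treated tumour reached the lowest vehicle tumour. Cdk4 fell by 0.16 ± 0.04 on the log2 scale under anti-PD-1 (adjusted p 0.0185, limma) and by 0.36 ± 0.09 under the combination (adjusted p 0.0167, limma), with an exact two-sided permutation p of 0.00794 in each. Both genes overlap an annotated gene on the opposite strand in the mouse GENCODE M21 annotation, by 1100 bases with LTO1 for Ccnd1 and by 641 bases with Tspan31 for Cdk4. The library kit marks strand, and whether the authors' counting used it is not given in the sources used here.

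E2f2, an activator E2F factor and the lowest member in vehicle tumours, was listed at 3.86, 4.44, 4.01, 4.25 and 3.69 FPKM in vehicle, 4.76, 6.39, 5.08, 5.61 and 5.88 FPKM under anti-PD-1, and 6.85, 5.42, 5.20, 4.82 and 5.26 FPKM under the combination. All 10 treated tumours exceeded all vehicle tumours. It rose by a log2 difference of 0.37 ± 0.07 under anti-PD-1 (adjusted p 0.00600) and of 0.36 ± 0.08 under the combination (adjusted p 0.00983, both limma), and the 2 treated groups differed by -0.01 ± 0.09. E2f1, the related activator, had means of 23.0 ± 1.17, 26.0 ± 2.09 and 25.1 ± 3.97 FPKM (SD, n = 5 each) in vehicle, anti-PD-1 and combination. Its anti-PD-1 tumours all lay above vehicle, but its adjusted p was 0.0556 (limma).

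Among the genes of origin licensing and the replicative helicase, Cdt1, the licensing factor that loads Mcm helicases with Cdc6, was listed at 22.1, 23.5, 24.9, 25.0 and 24.0 FPKM in vehicle tumours, at 29.3, 28.7, 28.4, 29.9 and 30.8 FPKM under anti-PD-1 and at 31.7, 27.5, 29.8, 25.7 and 23.1 FPKM under the combination. The anti-PD-1 tumours did not overlap vehicle, and the combination tumours ran from the vehicle range to the top of all 15. Cdt1 rose under anti-PD-1 by 0.29 ± 0.04 (adjusted p 0.00186, limma). The combination differed from vehicle by 0.19 ± 0.08 (adjusted p 0.0903, limma), and it passed under 5 of 19 alternatives: median-ratio scaling, both fits over all 15 libraries, without combination replicate 5, and without replicates 3 and 5.

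Mcm5, a helicase subunit, was listed at 31.3, 37.4, 36.8, 35.2 and 35.6 FPKM in vehicle, 39.5, 38.4, 41.1, 40.9 and 42.5 FPKM under anti-PD-1, and 36.8, 38.2, 34.9, 32.3 and 30.6 FPKM under the combination. The anti-PD-1 tumours lay above all tumours of both other groups. Mcm5 rose under anti-PD-1 by 0.20 ± 0.05 (adjusted p 0.0209, limma). Without anti-PD-1 replicate 5 that call was lost. The subunit Mcm7 rose by 0.15 ± 0.05 (adjusted p 0.0494), close to the threshold, and its call was lost under 14 of 18 alternatives. Its locus overlaps Ap4m1 and Cops6 on the opposite strand and the miRNA genes Mir25 and Mir93 on its own.

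The other subunits did not pass. Mcm2 was listed at 45.5, 48.4, 48.6, 49.0 and 49.6 FPKM in vehicle, 46.9, 48.1, 47.5, 53.8 and 50.7 FPKM under anti-PD-1, and 46.8, 49.5, 43.4, 43.1 and 36.2 FPKM under the combination. Its vehicle and anti-PD-1 tumours interleaved, with a difference of 0.03 ± 0.04 (adjusted p 0.634, limma). Mcm4 was listed at 31.2, 35.4, 32.0, 36.4 and 33.3 FPKM in vehicle, 36.6, 36.7, 34.3, 36.9 and 39.8 FPKM under anti-PD-1, and 34.8, 36.1, 33.2, 30.3 and 29.4 FPKM under the combination. Its anti-PD-1 values mostly lay above vehicle but overlapped it (0.13 ± 0.05, adjusted p 0.106, limma). Mcm3 and Mcm6 differed from vehicle by 0.12 ± 0.04 and 0.04 ± 0.04 under anti-PD-1, Cdc6 by 0.13 ± 0.06, and none of the 3 passed. Gins2, a subunit of the GINS complex that joins the helicase at origin firing, was listed at 18.6, 23.2, 23.0, 23.9 and 22.7 FPKM in vehicle, 26.4, 23.5, 23.8, 23.4 and 24.0 FPKM under anti-PD-1, and 22.8, 21.9, 18.9, 21.4 and 20.7 FPKM under the combination. All combination tumours lay below all anti-PD-1 tumours. Gins2 overlaps Gse1 on the opposite strand by 2758 bases.

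At the fork and in nucleotide supply, Pcna, the sliding clamp of the replicative polymerases, was listed at 166, 172, 165, 192 and 169 FPKM in vehicle, 203, 187, 195, 205 and 213 FPKM under anti-PD-1, and 206, 212, 167, 209 and 168 FPKM under the combination. Combination replicates 3 and 5 sat at the vehicle level and the other 3 at the anti-PD-1 level. Pcna rose under anti-PD-1 by 0.22 ± 0.05 (adjusted p 0.0135, limma), and the combination differed from vehicle by 0.15 ± 0.09 (adjusted p 0.198). Rrm2, the regulated subunit of ribonucleotide reductase, was listed at 86.7, 93.4, 98.1, 101 and 102 FPKM in vehicle, 115, 109, 124, 125 and 132 FPKM under anti-PD-1, and 126, 110, 100, 101 and 85.1 FPKM under the combination. It rose under anti-PD-1 by 0.33 ± 0.06 with no overlap (adjusted p 0.00522, limma), and its combination values spanned both other groups (0.11 ± 0.10 from vehicle, adjusted p 0.410).

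Rrm1, the large subunit, differed from vehicle by 0.09 ± 0.05 under anti-PD-1 and did not pass. Tyms, thymidylate synthase, was the single S phase member with a negative difference under anti-PD-1. It was listed at 3.54, 4.92, 4.95, 4.26 and 4.33 FPKM in vehicle, 3.64, 3.63, 3.70, 4.55 and 4.54 FPKM under anti-PD-1, and 4.09, 4.22, 3.33, 3.40 and 3.45 FPKM under the combination. The groups overlapped (-0.11 ± 0.09, adjusted p 0.419, limma). Annotated pseudogenes are named after Tyms, Pcna, Ccnb1 and Ccnb2, so reads of these 4 could be split between copies and their levels are uncertain. Pseudogenes were matched by name only, so copies of any member under other names were not looked for.

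The E cyclins, which act after cyclin D in late G1, did not pass the test. Ccne1, cyclin E1, was listed at 16.1, 13.9, 17.5, 15.4 and 20.5 FPKM in vehicle, 15.1, 13.8, 19.3, 20.9 and 18.2 FPKM under anti-PD-1, and 17.1, 11.7, 14.3, 12.4 and 13.0 FPKM under the combination. Spread within each group was wide, with differences from vehicle of 0.05 ± 0.12 under anti-PD-1 (adjusted p 0.779) and of -0.27 ± 0.11 under the combination (adjusted p 0.0960, limma). Ccne2 and Cdk2, the second cyclin E and its kinase, did not pass in any comparison, with adjusted p between 0.320 (Ccne2, combination against anti-PD-1) and 0.966 (Cdk2, anti-PD-1 against vehicle).

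**Figure D2:**
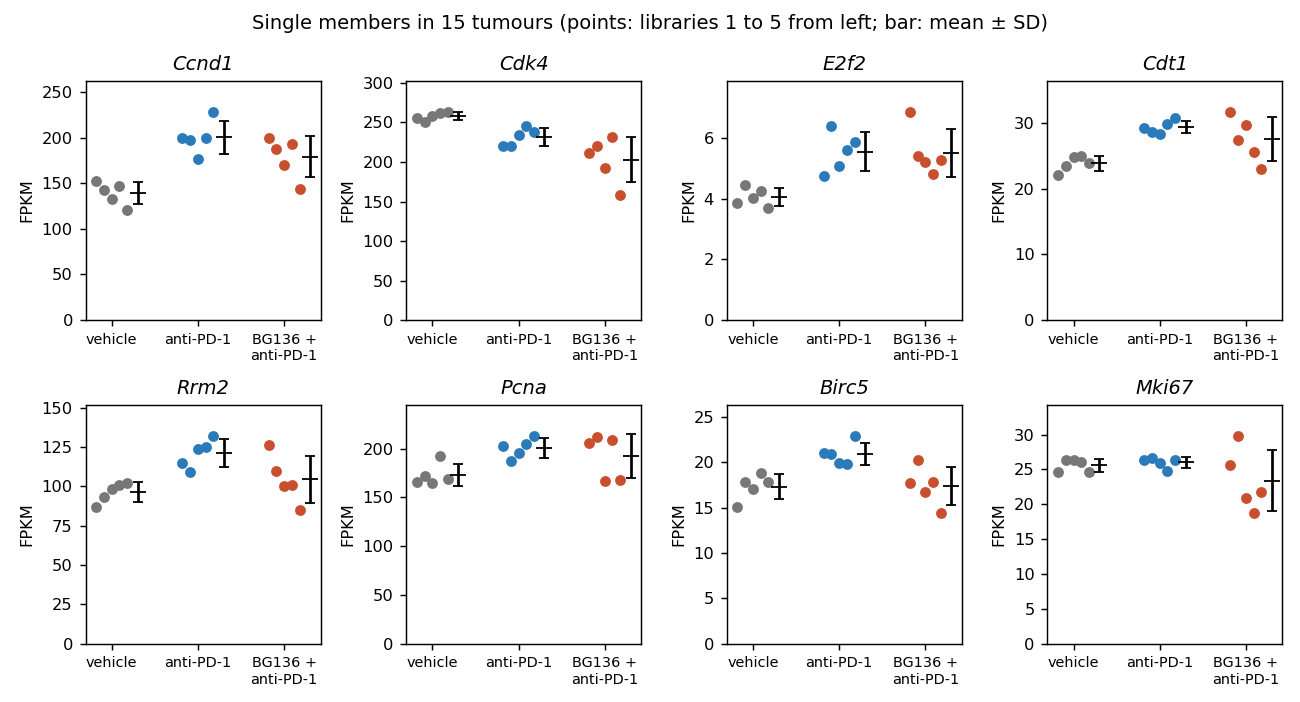
FPKM of 8 members in each tumour (points, replicates 1 to 5 from left to right) with the group mean ± SD (n = 5) beside them, each axis starting at 0. Ccnd1, Cdt1, Rrm2 and Birc5 show anti-PD-1 tumours wholly above vehicle, Cdk4 shows both treated groups wholly below it, and Mki67 shows overlapping groups.

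Of the G2 and mitosis genes, Birc5, the chromosomal passenger protein survivin, had the largest rise under anti-PD-1. It was listed at 15.1, 17.8, 17.1, 18.8 and 17.8 FPKM in vehicle, 21.0, 20.9, 19.9, 19.8 and 22.9 FPKM under anti-PD-1, and 17.7, 20.2, 16.7, 17.8 and 14.4 FPKM under the combination. Anti-PD-1 lay wholly above vehicle, and the combination ran from below the lowest vehicle tumour to above the highest, with nearly the same mean as vehicle (17.4 and 17.3 FPKM). The log2 difference was 0.26 ± 0.06 under anti-PD-1 (adjusted p 0.0127, limma).

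Aurkb, the kinase of the same passenger complex, was listed at 19.1, 20.7, 21.7, 19.8 and 19.9 FPKM in vehicle, 21.8, 20.9, 24.5, 24.4 and 24.6 FPKM under anti-PD-1, and 25.2, 20.7, 18.8, 22.3 and 14.9 FPKM under the combination. Ccnb1, cyclin B1, was listed at 43.7, 47.6, 46.0, 46.6 and 42.9 FPKM in vehicle, 48.7, 48.9, 48.9, 49.3 and 50.8 FPKM under anti-PD-1, and 50.4, 54.8, 42.8, 44.6 and 33.5 FPKM under the combination. Both rose under anti-PD-1 by small amounts, 0.19 ± 0.05 for Aurkb (adjusted p 0.0351) and 0.12 ± 0.04 for Ccnb1 (adjusted p 0.0413, limma), and these calls were lost under 11 and 13 of 18 alternatives. In the combination their 5 values ran from below the lowest vehicle tumour to above the highest.

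Mki67, Top2a and Cdk1 did not pass. Mki67, the Ki-67 antigen of dividing cells, was listed at 24.6, 26.3, 26.4, 26.1 and 24.6 FPKM in vehicle, 26.4, 26.7, 25.9, 24.7 and 26.4 FPKM under anti-PD-1, and 25.6, 29.8, 20.9, 18.7 and 21.8 FPKM under the combination. Vehicle and anti-PD-1 tumours covered nearly the same narrow range (0.02 ± 0.04, adjusted p 0.684, limma), while the combination tumours reached both above and below it. Top2a, topoisomerase II alpha, was listed at 91.0, 96.2, 98.7, 98.2 and 99.9 FPKM in vehicle, 102, 105, 102, 104 and 117 FPKM under anti-PD-1, and 108, 108, 88.4, 86.1 and 69.7 FPKM under the combination. Its anti-PD-1 tumours lay just above vehicle without overlap (exact two-sided permutation p 0.00794), but its adjusted p was 0.0667 (0.13 ± 0.05, limma). Cdk1, the mitotic kinase, was listed at 44.4, 44.6, 44.4, 49.9 and 44.7 FPKM in vehicle, 43.1, 42.6, 45.0, 48.4 and 51.6 FPKM under anti-PD-1, and 48.6, 48.3, 40.7, 51.1 and 33.2 FPKM under the combination. Its groups overlapped (0.01 ± 0.06, adjusted p 0.879, limma).

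The other 14 members of the class differed from vehicle by -0.09 (Cenpf, a kinetochore protein) to 0.15 (Ube2c, the ubiquitin-conjugating enzyme of the anaphase-promoting complex) under anti-PD-1, and none passed.

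The promoters of the members were also read for the motifs known from each class, as a description with no test. The RefSeq promoter windows of build GRCm38.p6, which run from 250 bases before the start to 50 after, held 32 of the 40 members. Motifs were searched on both strands: the E2F motif as TTCCCGC or TTGGCGC or TTCGCGC or TTGCCGC, the cell cycle homology region (CHR), bound by MuvB, as TTTGAA, and the CCAAT box, bound by NF-Y, as CCAAT. An E2F motif stood in 10 of 15 S phase and replication promoters (66.7%), in 3 of 16 G2 and mitosis promoters (18.8%) and in 10.9% of the 27025 genes of the table. A CHR stood in 2 of 15 (13.3%), in 12 of 16 (75.0%) and in 20.2%. A CCAAT box stood in 10 of 15 (66.7%), in 15 of 16 (93.8%) and in 41.1%. All 12 G2 and mitosis promoters with a CHR also held a CCAAT box. The letters of TTGGCGC can overlap an inverted CCAAT box, and 22 of the 24 E2F matches in the S phase genes and 3 of the 4 in the G2 and mitosis genes shared no letter with a CCAAT match. Counted by gene, such a clear E2F match stood in 10 of 15 S phase promoters (66.7%). It stood in 2 of 16 G2 and mitosis promoters (12.5%), near the 10.5% of all genes. A match is a description of letters in this window and not a binding site.

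The windows below are those of the 2 matched genes of each later class with the smallest p in the tests above (Cdt1 and Rrm2, then Birc5 and Ccnb1), and of Mki67, chosen after its values were seen to show a promoter with all 3 motifs. Capitals mark E2F, CHR and CCAAT matches. Cdt1 is on the plus strand at chr8:122567765-122568064, and its 2 E2F matches lie at bases 19 and 34 after the start. Rrm2 is on the plus strand at chr12:24708004-24708303, with an E2F match at -235 and a CCAAT box at -50, counted from the start. Birc5 is on the plus strand at chr11:117848987-117849286, where none of these letters was found. Ccnb1 is on the minus strand at chr13:100786437-100786736, where the E2F match at -102 shares letters with a CCAAT box at -99 and another CCAAT box stands at -67. Mki67 is on the minus strand at chr7:135716330-135716629, with CHR matches at -116 and -98 and an E2F match at -67. Each is printed 5′ to 3′ on the strand of its gene.
Cdt1: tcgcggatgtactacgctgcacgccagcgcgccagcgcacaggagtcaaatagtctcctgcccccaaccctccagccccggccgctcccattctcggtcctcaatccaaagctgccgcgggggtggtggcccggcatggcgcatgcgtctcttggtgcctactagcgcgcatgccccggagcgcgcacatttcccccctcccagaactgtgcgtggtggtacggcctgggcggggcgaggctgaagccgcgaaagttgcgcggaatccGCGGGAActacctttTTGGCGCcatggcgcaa
Rrm2: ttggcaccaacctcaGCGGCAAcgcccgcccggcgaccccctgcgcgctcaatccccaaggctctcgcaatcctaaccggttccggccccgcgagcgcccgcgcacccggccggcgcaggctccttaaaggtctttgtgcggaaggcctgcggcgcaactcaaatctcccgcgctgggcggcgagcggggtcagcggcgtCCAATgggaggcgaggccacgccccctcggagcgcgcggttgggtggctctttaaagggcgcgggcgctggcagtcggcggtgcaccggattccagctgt
Birc5: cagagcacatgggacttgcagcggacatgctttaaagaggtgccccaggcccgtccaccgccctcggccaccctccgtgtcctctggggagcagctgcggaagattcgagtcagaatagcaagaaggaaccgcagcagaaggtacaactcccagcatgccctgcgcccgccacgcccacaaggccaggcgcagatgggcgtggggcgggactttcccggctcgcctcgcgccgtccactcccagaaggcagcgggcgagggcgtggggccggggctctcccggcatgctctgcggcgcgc
Ccnb1: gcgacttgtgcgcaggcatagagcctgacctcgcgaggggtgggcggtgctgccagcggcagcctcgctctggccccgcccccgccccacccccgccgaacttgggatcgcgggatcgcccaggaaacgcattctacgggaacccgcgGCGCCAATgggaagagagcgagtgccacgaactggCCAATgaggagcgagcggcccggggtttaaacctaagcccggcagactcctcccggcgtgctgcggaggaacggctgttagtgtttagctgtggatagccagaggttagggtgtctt
Mki67: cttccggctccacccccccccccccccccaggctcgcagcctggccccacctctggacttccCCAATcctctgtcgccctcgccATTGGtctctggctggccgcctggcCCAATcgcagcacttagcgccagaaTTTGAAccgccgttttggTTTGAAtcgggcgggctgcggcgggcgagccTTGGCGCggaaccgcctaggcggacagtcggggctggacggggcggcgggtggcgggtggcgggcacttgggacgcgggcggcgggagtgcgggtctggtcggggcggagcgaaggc

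Apart from Mki67, the genes shown were picked for the smallest p, so that they changed was set by the choice. The windows of the 2 S phase genes, Cdt1 and Rrm2, held E2F letters, as did 10 of 15 promoters of their class. Birc5 rose beside them with no such letters in its window, and Mki67, with E2F and CHR letters, did not pass in any comparison. Over the S phase class, 5 of the 10 genes with an E2F match rose under anti-PD-1 (E2f2, Cdt1, Mcm5, Mcm7 and Rrm2) and 1 of the 5 without one (Pcna), a description of few genes with no test.

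**Figure D3:**
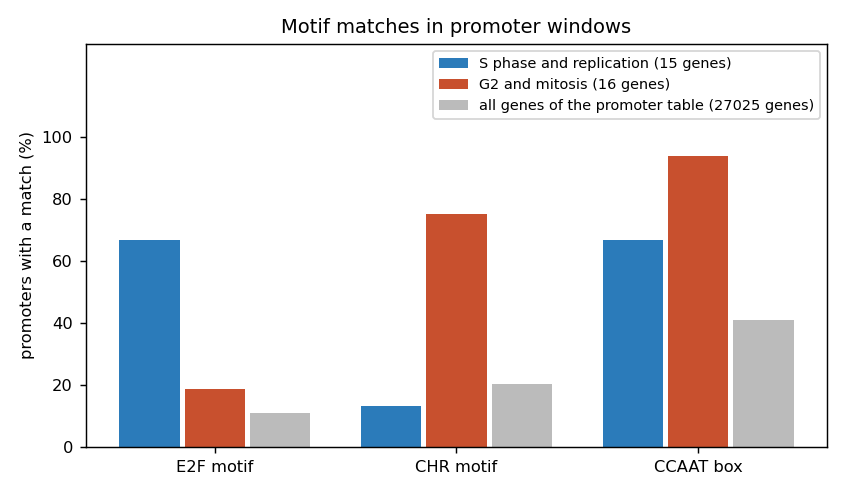
Bars give the percentage of promoter windows with at least 1 match on either strand for S phase and replication genes, G2 and mitosis genes, and all genes of the promoter table. The E2F motif is most frequent in the S phase class (66.7%) and the CHR in the G2 and mitosis class (75.0%).

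With the combination, 2 members rose against vehicle (Ccnd1 and E2f2) and 1 fell (Cdk4), with the values given above. This was 3 of 40 members, where 32.6% of all tested genes passed, 13.9% as higher and 18.7% as lower (limma, adjusted p under 0.05), so fewer members passed than the share of all genes. The S phase and replication genes had a median log2 difference of -0.04, with 6 of 18 positive (33.3%). The G2 and mitosis genes had a median of -0.14, with 2 of 20 positive (10%) and none past the threshold. Over all tested genes the median was -0.05 and 40.5% were positive, so the S phase genes lay near the whole set. Under median-ratio scaling 9 of 18 and 5 of 20 were positive, beside 5167 of all 11311 tested genes. At an unadjusted p under 0.05 stood 9 of the 40 members (22.5%), against 44.8% of all tested genes. Both comparisons with vehicle use the same 5 vehicle tumours.

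The 4 members of the G2 and mitosis class with the smallest p are given next. That they differed more than the class median was set by the choice, and none of them passed. Bub1b, the spindle checkpoint kinase-like protein BubR1, was listed at 23.0, 24.7, 24.1, 25.2 and 24.6 FPKM in vehicle, 25.1, 24.4, 25.6, 23.6 and 24.1 FPKM under anti-PD-1, and 21.6, 25.8, 18.8, 20.1 and 17.5 FPKM under the combination. Kif20a, a kinesin of cytokinesis, was listed at 21.2, 21.7, 22.2, 22.7 and 20.3 FPKM in vehicle, 23.4, 21.3, 20.8, 20.5 and 23.1 FPKM under anti-PD-1, and 18.8, 22.6, 18.2, 18.0 and 16.1 FPKM under the combination. In both genes 4 of 5 combination tumours lay below all vehicle tumours, and replicate 2 lay above all of them in Bub1b and among them in Kif20a. The differences from vehicle were -0.23 ± 0.09 for Bub1b (adjusted p 0.0663) and -0.20 ± 0.08 for Kif20a (adjusted p 0.0675, limma).

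Cenpf was listed at 8.13, 8.50, 8.41, 8.57 and 8.49 FPKM in vehicle, 7.39, 8.67, 7.81, 7.52 and 7.89 FPKM under anti-PD-1, and 7.88, 8.97, 6.04, 6.67 and 5.51 FPKM under the combination. Plk1, the polo-like kinase of mitotic entry, was listed at 29.8, 36.7, 34.7, 32.5 and 29.4 FPKM in vehicle, 35.6, 31.8, 31.9, 33.5 and 34.4 FPKM under anti-PD-1, and 30.4, 33.6, 26.2, 25.6 and 24.6 FPKM under the combination. Combination replicates 3, 4 and 5 were the lowest 3 of all 15 tumours in both genes. The differences from vehicle were -0.25 ± 0.10 (adjusted p 0.0858) and -0.21 ± 0.09 (adjusted p 0.106, limma). Cenpa, the centromeric histone H3 variant, stood apart from its class with a difference of 0.13 ± 0.07 (adjusted p 0.175).

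**Figure D4:**
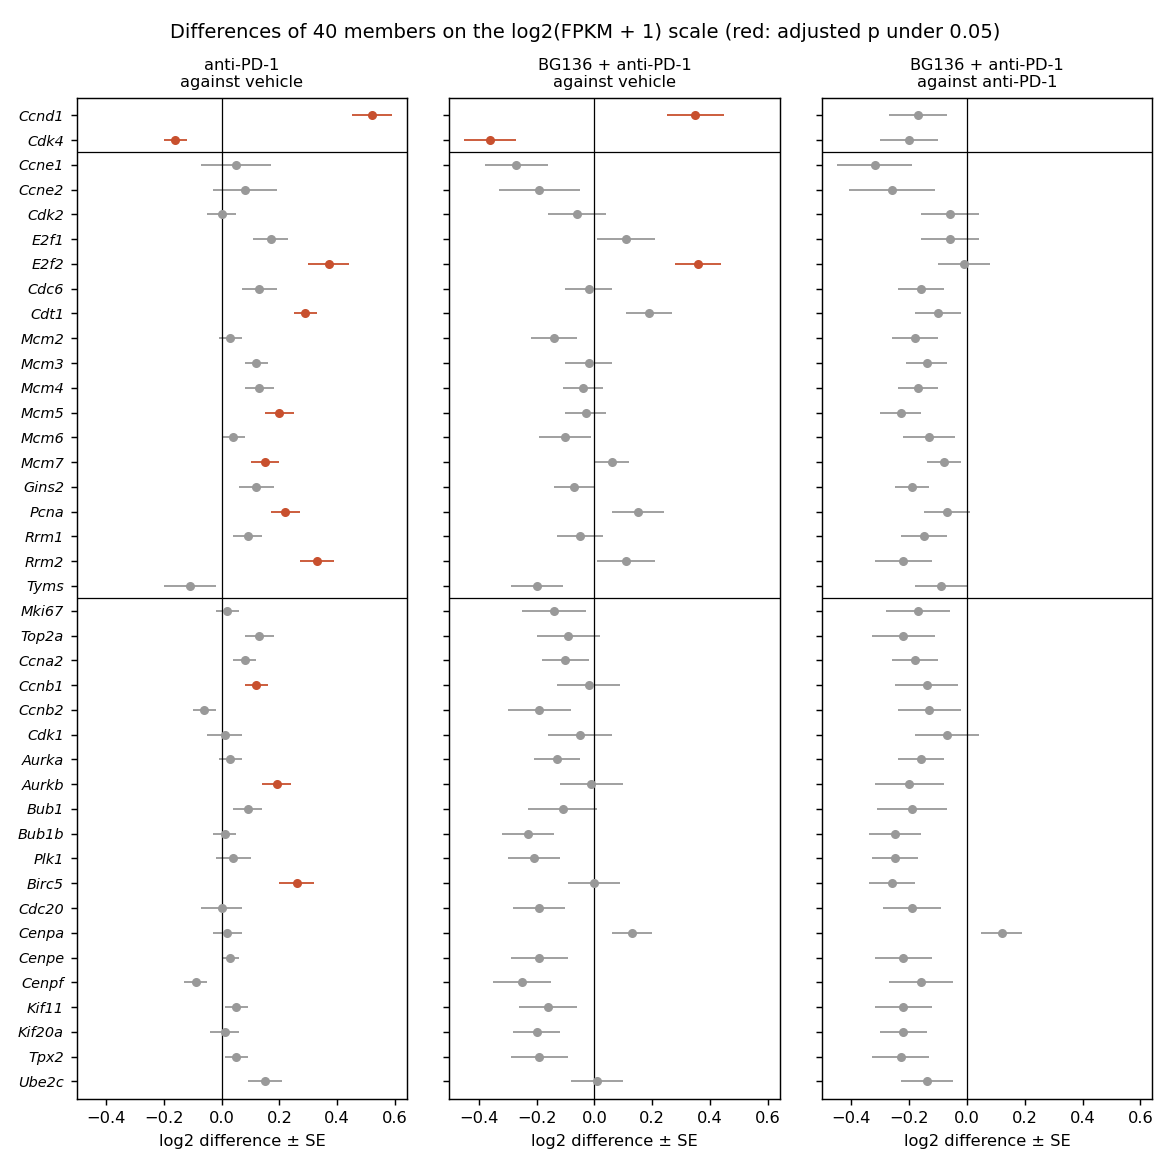
Points give the log2(FPKM + 1) difference of each member and bars its SE in the 3 comparisons, with red for an adjusted p under 0.05 in limma; lines separate G1, S phase and replication, and G2 and mitosis genes. Red points number 11 for anti-PD-1, 3 for the combination against vehicle and 0 for the combination against anti-PD-1.

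The combination tumours were unlike each other in these genes. The median SD of log2 values over the 20 G2 and mitosis genes was 0.226 in the combination, 0.063 in vehicle and 0.067 in anti-PD-1; over all tested genes it was 0.164, 0.091 and 0.096. Relative to the vehicle mean, the median G2 and mitosis gene stood at 0.013, 0.085, -0.210, -0.127 and -0.414 on the log2 scale in combination replicates 1 to 5, and the median S phase gene at 0.062, 0.143, -0.023, -0.065 and -0.199. The vehicle tumours themselves stood between -0.053 and 0.034 for G2 and mitosis and between -0.106 and 0.061 for S phase. The G2 and mitosis medians of replicates 3, 4 and 5 lay below that range and that of replicate 2 above it, while the S phase medians of replicates 3 and 4 lay inside it. The median over all tested genes stood at -0.019, -0.025, -0.062, -0.042 and -0.107 in the same 5 tumours, also lowest in replicate 5. Replicate 5 was the lowest of its group in 16 of 20 G2 and mitosis genes and 12 of 18 S phase genes, and replicate 2 the highest in 17 of 20 and 10 of 18. In the 5 anti-PD-1 tumours the median S phase gene stood between 0.095 and 0.196 and the median G2 and mitosis gene between 0.041 and 0.082.

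Markers of immune cells and of some other cell types moved with this spread. The summed level of 9 T cell markers (Cd3d, Cd3e, Cd8a and others) was 72.6, 52.4, 98.8, 72.4 and 191 FPKM in combination replicates 1 to 5, against 18.1 to 38.3 FPKM in vehicle and 38.8 to 57.4 FPKM under anti-PD-1. The sum of 9 macrophage and monocyte markers was 2686, 1989, 3900, 2708 and 4696 FPKM, against 1357 to 1722 and 1957 to 2338 FPKM. Replicates 3 and 5, with the lowest G2 and mitosis medians, had the highest sums of both lists, and replicate 2, with the highest, had the lowest sums. Replicates 1 and 4 had nearly equal sums of both lists but G2 and mitosis medians of 0.013 and -0.127. Of the T cell markers 8 of 9 rose in the combination and 5 of 9 under anti-PD-1, and of the macrophage markers 8 of 9 in each (limma); no marker of either list was at 0 in any library. The sums of 7 fibroblast markers were 862 to 1986 FPKM in the combination and 1177 to 1380 FPKM in vehicle, with 3 markers higher and 2 lower; of 5 endothelial markers the sums were 36.2 to 93.3 and 25.3 to 36.4 FPKM, with 3 higher. Those of 7 adipocyte markers were 22.7 to 288 and 5.87 to 219 FPKM. Those of 7 skeletal muscle markers were 0.758 to 169 and 0.866 to 185 FPKM, with no marker of either list past the threshold. Those of the 6 epithelial markers were 3.26 to 29.1 and 1.02 to 7.53 FPKM, with 3 higher. In combination replicates 1 to 5 the endothelial sums were 40.3, 36.2, 66.4, 51.7 and 93.3 FPKM, also lowest in replicate 2 and highest in replicates 3 and 5. The fibroblast sums were 862, 982, 1274, 1142 and 1986 FPKM and the epithelial sums 3.26, 4.87, 17.6, 28.0 and 29.1 FPKM, both highest in replicate 5. The adipocyte sum was highest in replicate 4 and the muscle sum in replicate 1. The part of these cells in the levels of the cell cycle genes was not tested.

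**Figure D5:**
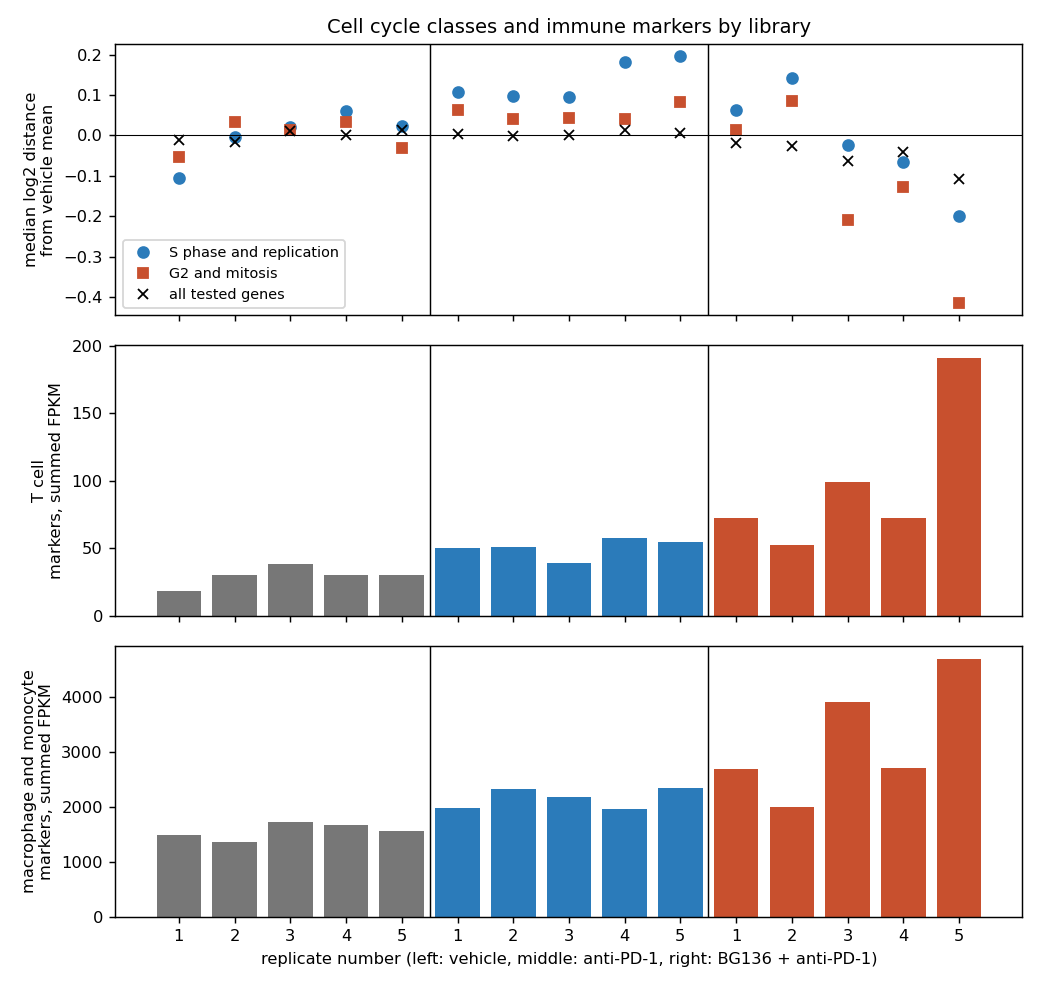
The upper panel gives, for each tumour, the median log2 distance from the vehicle mean of the S phase genes, the G2 and mitosis genes and all tested genes. The lower panels give the summed FPKM of 9 T cell and 9 macrophage and monocyte markers in the same tumours: combination replicate 5 has the lowest medians (-0.199 and -0.414) and the highest sums (191 and 4696 FPKM).

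The calls in the combination rested on which tumours were included and on the fit. In 1 fit over all 15 libraries 7 members passed, with Cdt1 higher and Bub1b, Cenpf and Kif20a lower beside the 3 above. In that fit 4578 of all 11311 tested genes passed. Replicates 3 and 5, the pair with the highest immune marker sums, also had the lowest G2 and mitosis medians, so a higher median without them follows from the choice of the pair and is no separate result. Without them 6 members were higher than vehicle (Ccnd1, E2f2, E2f1, Cdt1, Pcna and Cenpa) and Cdk4 was lower, 25 of 40 differences were positive, and the G2 and mitosis median was 0.00. Over all 11311 tested genes 1228 were then higher and 1519 lower, and 5041 differences were positive. Without replicate 5 alone 19 of 40 members were positive, beside 4842 of all 11311 tested genes. Without replicate 2, 9 members were lower (Cdk4, Mki67, Bub1b, Plk1, Cdc20, Cenpe, Cenpf, Kif20a and Tpx2) and 2 higher, and the G2 and mitosis median was -0.20. Over all 11311 tested genes 2449 were then lower and 1936 higher. Replicate 2 was the highest of its group in 17 of 20 G2 and mitosis genes. A lower median and more lower calls without it follow from the choice of tumour and are no separate result.

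Setting the combination against anti-PD-1 asks what BG136 added. No member passed the threshold, nor did any other gene (0% of 11311 as higher, lower or either; limma, lowest adjusted p over the members 0.212). At an unadjusted p under 0.05 stood 12 of 40 members (30%) and 2268 of all tested genes (20.1%), and the fit over all 15 libraries called 7 genes, none of them a member. The differences were negative in 39 of 40 members, Cenpa (0.12 ± 0.07) being the exception, and in 63% of all tested genes. Medians were -0.14 for S phase genes, -0.19 for G2 and mitosis genes and -0.05 for all tested genes. Under median-ratio scaling 38 of 40 members were negative, beside 6191 of all 11311 tested genes. Without combination replicates 3 and 5, 32 of 40 members were negative, beside 6874 of all 11311 tested genes.

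Mcm5 and Gins2 had the smallest p among S phase genes, with -0.23 ± 0.07 and -0.19 ± 0.06 (adjusted p 0.212 in each, limma). They were also the 2 members (5%) whose combination tumours all lay below the anti-PD-1 tumours, as did 3.84% of all tested genes. In the G2 and mitosis class Birc5 (-0.26 ± 0.08), Plk1 (-0.25 ± 0.08), Bub1b (-0.25 ± 0.09) and Kif20a (-0.22 ± 0.08) had the smallest p, each with an adjusted p between 0.212 and 0.219. Ccne1 had the largest difference of all members, -0.32 ± 0.13 (adjusted p 0.222).

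A wider set of 130 cell cycle genes in 9 lists was read beside the members, all of them tested. Under anti-PD-1 23 rose and 5 fell, with a median of 0.08. In the combination 2 rose and 12 fell, with a median of -0.08, and between the treated groups none passed, with a median of -0.15. Over all tested genes 10.1% rose and 8.50% fell under anti-PD-1, and 13.9% and 18.7% in the combination. By list, the medians under anti-PD-1 were 0.13 for origin licensing (1 of 16 higher) and 0.10 for polymerases and clamp loader (2 of 22). Kinesins, spindle and cytokinesis had 0.12 (5 of 18), so the gap between the member classes was not seen across all lists. Kinetochore genes had 0.05, condensins and cohesin 0.04, and the other lists lay between 0.02 and 0.09.

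Among the CDK inhibitors, genes moved in both directions. Cdkn1a, the inhibitor p21, had 25.0 ± 1.40, 31.5 ± 3.86 and 41.4 ± 8.65 FPKM (SD, n = 5 each) in vehicle, anti-PD-1 and combination, with no combination tumour (33.3 to 54.3 FPKM) within the vehicle range (22.8 to 26.1 FPKM). It rose by 0.32 ± 0.08 (adjusted p 0.0162) and 0.68 ± 0.12 (adjusted p 0.00315, limma). Cdkn2b, the Cdk4 and Cdk6 inhibitor p15, had 27.8 ± 2.46, 19.7 ± 1.63 and 11.0 ± 4.46 FPKM. It fell in both, with log2 differences of -0.47 ± 0.07 under anti-PD-1 (adjusted p 0.00190) and -1.37 ± 0.26 under the combination (adjusted p 0.00425), and its combination tumours (4.42 to 15.3 FPKM) lay wholly below the vehicle ones (24.6 to 30.5 FPKM). The difference between the treated groups did not pass for either gene (adjusted p 0.214 and 0.212).

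Cdkn1c, the inhibitor p57, fell by 0.66 ± 0.14 under the combination (adjusted p 0.00712), from 2.71 ± 0.357 to 1.38 ± 0.527 FPKM. Cdkn1b, p27, fell under anti-PD-1 by 0.19 ± 0.06 (adjusted p 0.0404). Rb1, the retinoblastoma protein, rose under the combination from 3.45 ± 0.429 to 5.24 ± 1.46 FPKM (0.46 ± 0.14, adjusted p 0.0307, limma). Of the 10 genes in that list 2 rose and 2 fell in each comparison with vehicle. With 10 genes, these counts are too few to set apart from the shares over all tested genes.

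Of 16 regulators and G1 genes 5 rose under anti-PD-1 (Cdk6, E2f8, Foxm1, Mybl2 and Lin54), where 10.1% of all tested genes rose. None passed in the combination, where 32.6% of all tested genes passed. In origin licensing, Orc3 of the origin recognition complex fell in both, by 0.18 ± 0.04 (adjusted p 0.00917) and 0.34 ± 0.06 (adjusted p 0.00307), from 6.77 ± 0.216 FPKM in vehicle to 5.85 ± 0.206 and 5.16 ± 0.415. For nucleotide supply, Tk1 (thymidine kinase) and Shmt1 (serine hydroxymethyltransferase) rose under anti-PD-1, by 0.33 ± 0.06 (adjusted p 0.00627) and 0.34 ± 0.06 (adjusted p 0.00475, limma). In the combination they differed from vehicle by 0.10 ± 0.10 and 0.19 ± 0.08 and did not pass.

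Of 18 genes of kinesins, spindle and cytokinesis 5 rose under anti-PD-1, where 10.1% of all tested genes rose. They were led by Anln, the actin-binding protein anillin (0.31 ± 0.05, adjusted p 0.00359, limma). The augmin subunit Haus7 fell by 0.91 ± 0.16 (adjusted p 0.00440) and in the combination by 1.85 ± 0.23 (adjusted p 0.000859), with means of 122 ± 17.6, 65.8 ± 18.5 and 34.9 ± 13.7 FPKM in vehicle, anti-PD-1 and combination. No other gene of that list fell in either comparison with vehicle. In the remaining 5 lists, of polymerases and clamp loader, checkpoint kinases, kinetochore, and condensins and cohesin with origin licensing, 1 to 3 genes of each list rose under anti-PD-1 and Orc3 and Wee1, the kinase that restrains Cdk1, fell. Wee1, named here after its values were seen, fell by 0.18 ± 0.04 (adjusted p 0.0127, limma). In the combination none rose and 1 to 3 of each list fell.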

How the data were processed

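Values were deposited by the authors as 1 column of expression per library. They were read as FPKM, from their range and from Cufflinks among the tools in the submitters' processing notes, which name the build GRCm39. The submitters' processing notes also list DESeq, HTSeq, HISAT2 and Trimmomatic among the authors' tools, with no version or role. Of 21878 rows, 27 with date-like symbols were left out (at most 0.168% of a library's FPKM). No counts were used, so absolute depth and counting error are unknown. From the spacing of low values, the libraries' depths were estimated coarsely as 0.834 to 1.07 of that of the first vehicle tumour.

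A gene entered the tests where 5 or more libraries reached 1 FPKM. Differences of log2(FPKM + 1) were fitted in limma (version 3.58.1, under R 4.3.3) by lmFit and eBayes with a trend. Each comparison was fitted on its own 10 libraries, because the combination tumours spread more widely. Tests were two-sided and adjusted by Benjamini-Hochberg over all 11311 genes. Exact permutation tests used all 252 splits. A pseudocount of 1 understates changes of low genes.

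The members and lists were chosen with earlier results of these data known. Values per library are given for 7 members set by name (Mki67, Top2a, Pcna, Mcm2, Ccnd1, Cdk1 and Ccnb1), for both G1 genes, and for the 4 members of each later class with the smallest p in each comparison. From the wider lists the 4 largest rises and falls past the threshold per comparison are given; other genes of those lists are named without values. Overlapping genes come from GENCODE M21 (build GRCm38) and promoter windows from RefSeq. As the authors' build differs, those coordinates are the reference's own. Replicate numbers were taken as names, and library names carry prefixes whose meaning is not stated, so these were not used as batches. The closing section gives the effect of other pseudocounts, filters, scalings, fits and left-out tumours.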

Additional observations from a re-analysis of the deposited data

Results flagged for a closer look

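Over the 120 sets of 5 tumours (40 members in 3 groups), 6 held a tumour far from the other 4 by Dixon's criterion, which chance alone meets in about 1 of 20 sets. Vehicle replicate 1 had the lowest Gins2 of its group, 18.6 FPKM beside 22.7 in the nearest tumour, and the lowest Cenpe, 9.28 beside 9.78 FPKM. Vehicle replicate 4 had the highest Pcna, 192 beside 172 FPKM, and the highest Cdk1, 49.9 beside 44.7 FPKM. Among the anti-PD-1 tumours, replicate 1 had the highest Gins2, 26.4 beside 24.0 FPKM, and replicate 5 the highest Top2a, 117 beside 105 FPKM. No combination tumour was set apart in this way for any member, in the group with the widest spread.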

How the results depend on the processing

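The count of members past the threshold in the combination against vehicle, 3, became 7 in 1 fit over all 15 libraries, 7 with a weight per group, 7 without combination replicates 3 and 5, 0 at an unadjusted p under 0.05 with a 1.5-fold change (1259 over all genes), and 2 (without vehicle replicate 5) to 11 (without combination replicate 2) when 1 tumour was left out. Over all genes the count was 3688 in the main fit, 4578 in the 15-library fit and 3848 with a weight per group. It was 2747 without combination replicates 3 and 5, 2559 without vehicle replicate 5 and 4385 without combination replicate 2. For anti-PD-1 against vehicle, 11 became 4 in the 15-library fit (628 of all genes instead of 2100), 0 under the 1.5-fold rule (339 over all genes), and 7 to 10 with 1 tumour left out. Leaving out 1 tumour gave 1458 to 2316 over all genes. Between the treated groups the count stayed 0 for members under the 20 alternatives run; over all genes it was 7 in the 15-library fit and 218 under the 1.5-fold rule. The cause of these shifts was not tested. Ccnd1, E2f2, Cdt1 and Rrm2 under anti-PD-1, and Cdk4 and E2f2 in the combination, passed in all 18 and 19 alternative fits; none of these reached 1.5-fold. No direction of a called member reversed. The replicate numbers did not pair the tumours: same-numbered deviations correlated at -0.388 to 0.293, and at most 2 of 10 tumours in a comparison correlated best with their own number. With the number as a replicate block, 3, 8 and 0 members passed for the combination and anti-PD-1 against vehicle and between them. Over all genes 3368, 1548 and 0 passed. On the gene strand alone E2F letters stood in 46.7% of S phase promoters, beside 5.84% of all genes. The CHR stood in 62.5% of G2 and mitosis promoters, beside 11.6% of all genes. The CCAAT box in G2 and mitosis promoters went from 93.8% to 68.8%, below its 95% confidence interval of 69.8% to 99.8%, beside 23.7% of all genes. The 5 tumours per group and unknown depth limit all of these.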
